A study of Mus musculus with 18 samples.

Results

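Transcript levels of 32 genes of cholesterol synthesis and sterol handling were compared in the mouse larynx after inhaled cigarette smoke, e-cigarette aerosol or room air. The genes were chosen by symbol, as a fixed list of the pathway, from the 54532 genes of the deposited count table, and all 32 were found and had enough reads to be tested. They comprise 19 synthesis enzymes, 4 sterol sensor proteins, 4 proteins of sterol transport and storage, and 5 genes of sterol efflux and its receptors. The 19 include Ggps1, which makes geranylgeranyl diphosphate on a side branch. Whole larynges of male C57BL6/J mice aged 8 to 9 weeks were profiled by mRNA sequencing in 18 libraries. The smoke group breathed 3R4F cigarette smoke, 3R4F being a reference research cigarette. The e-cigarette group breathed aerosol of a JUUL device with a Virginia tobacco product, and the air group breathed room air. All 3 groups spent 1 hour a day on 5 days a week for 4 weeks in a whole-body inhalation chamber, and each group had 6 libraries. The labels do not say whether each library came from a separate animal, so p-values measure the spread between libraries of a group, which may be technical.

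Cholesterol is built in the cytosol and endoplasmic reticulum from acetyl-CoA, by way of mevalonate, farnesyl diphosphate, squalene and lanosterol. When sterols in the endoplasmic reticulum run low, the escort protein Scap carries the transcription factor encoded by Srebf2 to the Golgi, where cleavage releases it to switch on the synthesis genes, and the Insig proteins hold it back when sterols are plentiful. When sterols are in excess, the liver X receptors Nr1h3 and Nr1h2 switch on efflux pumps such as Abca1. In the airway, cholesterol is a component of epithelial membranes and of secreted lipid layers, and macrophages take up and export large amounts of it.

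Library totals were 15868783 to 20306390 counts in smoke, 16697879 to 22469894 counts in e-cigarette and 15551432 to 17072677 counts in air libraries. The larynx epithelial markers Krt5, Krt13, Epcam, Foxj1 and Bpifa1 were present in every library, with Krt5 at 288 to 871 CPM (counts per 1000000 counted reads) in smoke, 500 to 928 CPM in e-cigarette and 319 to 928 CPM in air. Their levels were not all even between groups. Of 14 epithelial genes, 0 were higher and 2 lower in smoke against air, Bpifa1 (log2 fold change -0.73) and Foxj1 (-0.61). In e-cigarette against air 1 was higher, Trp63 (0.67), and 2 lower, Epcam (-0.68) and Krt8 (-0.89). Neighbouring tissue was also present and differed between groups. The summed level of 12 thyroid follicle genes was 58178 to 95664 CPM in smoke libraries, 145 to 29333 CPM in e-cigarette and 57213 to 98979 CPM in air. The e-cigarette libraries were uneven: libraries 1 and 3 held 26971 and 29333 CPM of thyroid transcripts, while libraries 2, 4, 5 and 6 held 829, 145, 155 and 2969 CPM. In e-cigarette against air libraries, 9 of 12 thyroid genes were lower and 1 higher, 6 of 6 parathyroid genes were lower, and 9 of 14 gland acinus and 10 of 14 skeletal muscle genes were higher. Of all genes tested, 12.1% were higher and 13.0% lower. In smoke against air, 3 of 14 gland acinus genes were higher, against 0.975% of all genes, and 0 thyroid, parathyroid or skeletal muscle genes were called. The sum of 15 gland genes was 20445 to 30520 CPM in smoke, 19416 to 54417 CPM in e-cigarette and 1328 to 25993 CPM in air libraries. In these whole-tissue samples, fewer cells of a type and less RNA per cell cannot be told apart. Results are therefore also given without e-cigarette libraries 2, 4, 5 and 6, which leaves 2 e-cigarette libraries, and with composition scores as covariates.

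The DNA just upstream of 5 genes on which the results turn is shown, because these stretches carry the short motifs through which sterol genes are known to be controlled. The sequences are from RefSeq on GRCm38.p6 and are written 5′ to 3′ in the direction of transcription. They cover chr13:119690101-119690350 on the plus strand for Hmgcs1, chr5:114444019-114444268 on the plus strand for Mvk, chrX:72918271-72918520 on the plus strand for Nsdhl, chr5:28071162-28071362 on the plus strand for Insig1 and chr12:84773153-84773362 on the minus strand for Npc2. Those of Insig1 and Npc2 are shortened to leave out bases inside the deposited gene models. Capitals mark the sterol regulatory element TCACNCCAC, the NF-Y motif CCAAT on either strand (ATTGG when on the other strand) and the E-box core CACGTG.
Hmgcs1: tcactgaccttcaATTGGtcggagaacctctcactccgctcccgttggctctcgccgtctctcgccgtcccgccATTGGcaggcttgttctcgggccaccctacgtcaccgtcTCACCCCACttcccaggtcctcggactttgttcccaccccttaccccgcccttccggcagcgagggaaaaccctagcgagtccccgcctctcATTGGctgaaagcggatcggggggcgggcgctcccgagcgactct
Mvk: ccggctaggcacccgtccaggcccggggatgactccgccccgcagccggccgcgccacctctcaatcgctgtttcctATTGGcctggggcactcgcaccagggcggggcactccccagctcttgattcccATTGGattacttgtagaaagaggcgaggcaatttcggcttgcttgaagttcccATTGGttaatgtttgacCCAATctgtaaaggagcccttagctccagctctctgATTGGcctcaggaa
Nsdhl: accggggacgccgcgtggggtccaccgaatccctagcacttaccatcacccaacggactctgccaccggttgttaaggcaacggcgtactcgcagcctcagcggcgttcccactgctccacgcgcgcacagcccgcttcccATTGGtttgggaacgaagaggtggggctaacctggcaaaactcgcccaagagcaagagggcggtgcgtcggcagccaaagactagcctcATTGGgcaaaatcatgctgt
Insig1: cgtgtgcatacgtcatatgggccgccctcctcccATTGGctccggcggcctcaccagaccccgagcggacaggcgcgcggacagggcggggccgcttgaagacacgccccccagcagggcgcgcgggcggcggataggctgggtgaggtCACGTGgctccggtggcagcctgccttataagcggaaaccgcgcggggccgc
Npc2: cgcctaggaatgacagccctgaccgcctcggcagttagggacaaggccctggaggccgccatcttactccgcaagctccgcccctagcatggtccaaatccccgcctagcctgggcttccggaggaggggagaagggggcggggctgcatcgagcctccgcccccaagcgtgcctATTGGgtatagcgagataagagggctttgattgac
The Hmgcs1 stretch carries the sterol regulatory element 137 to 129 bases before the RefSeq start, together with 3 NF-Y motifs. The Mvk stretch carries 5 NF-Y motifs, that of Nsdhl 2, and that of Insig1 has 1 beside an E-box core. The Npc2 stretch, from a gene that was lower in e-cigarette libraries, carries 1 NF-Y motif in the part shown.

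Promoter windows of 250 bases before the start were at hand for 26 of the 32 genes. None was at hand for Sqle, Fdps, Fdft1, Stard4, Npc1 and Abcg1, so the shares leave these out. The whole RefSeq table had windows for 27025 genes, which were not limited to those tested here. All motifs were searched on both strands. TCACNCCAC was found in 1 of the 26, Hmgcs1 (3.85%), against 1.22% of all genes with a window. The shorter core TCACNCCA, which the longer motif contains, was found in 3 of the 26, Hmgcs1, Msmo1 and Srebf2 (11.5%), against 4.2% of all genes. CACGTG was found in 6 (23.1%), against 6.86% of all genes. The longer E-box TCACGTGA, which contains it, was found in 0 of the 26, against 0.907% of all genes. CCAAT was found in 21 (80.8%), against 37.5%, and the Sp1 motif GGGCGG also in 21 (80.8%), against 35.4%. The liver X receptor motif known as DR4, a direct repeat of AGGTCA with 4 bases between, was in none of the 26 windows and in 0.0148% of all genes. A match is a description of letters, and binding was not measured.

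Of the 32 genes, 13 rose and 3 fell in e-cigarette against air libraries by edgeR's quasi-likelihood test at a Benjamini-Hochberg adjusted p below 0.05. The background is large: 25.1% of the 17537 genes tested were called in this comparison, 12.1% higher and 13.0% lower. The 13 genes that rose make up 40.6% of the list and the 3 that fell 9.38%. The median log2 fold change over the list was 0.28, against 0.0068 over all genes tested. All fold changes in the text are on the log2 scale, except where a ratio is written with -fold. Among the 19 synthesis enzymes, 9 rose (Hmgcs1, Mvk, Idi1, Sqle, Lss, Cyp51, Nsdhl, Sc5d and Dhcr7) and 0 fell, with a median of 0.38. The other 10 were not called, and Acat2, Mvd and Ggps1 among them had fold changes of -0.14, -0.15 and -0.19. At an unadjusted p below 0.05, 11 enzymes were higher and 0 lower. All 11 genes of the branch from squalene to cholesterol had a fold change above 0, from 0.15 to 0.64, and 6 of them passed the test. Outside synthesis, Insig1, Stard4, Npc1 and Soat1 rose and Npc2, Nr1h2 and Abca1 fell. The groups did not overlap for 5 genes that were higher (Mvk, Sqle, Nsdhl, Sc5d and Dhcr7) and 1 that was lower (Npc2), where 4.50% and 6.00% of all tested genes separated in those directions.

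**Figure D1:**
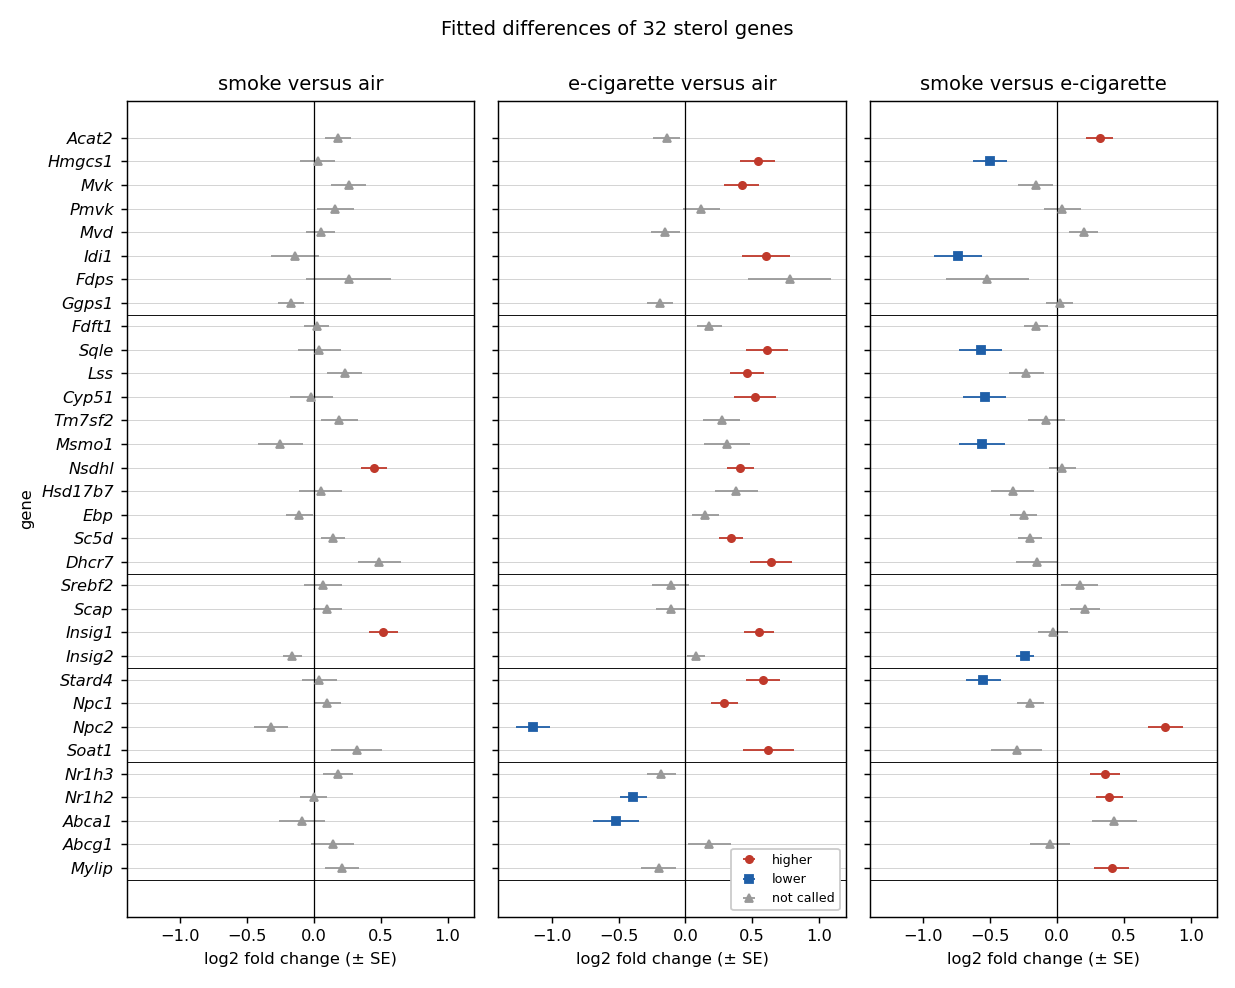
Fitted log2 fold change (x axis, bars ± SE) of each of the 32 genes (y axis, in pathway order, with lines between the role groups) for smoke versus air, e-cigarette versus air and smoke versus e-cigarette; circles and squares mark genes called higher and lower, triangles genes that were not called. The middle panel holds 13 genes called higher and 3 called lower, the left panel 2 called higher.

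Fewer genes of the list passed the same test after cigarette smoke. In smoke against air libraries 2 of 32 genes rose, Nsdhl and Insig1, and 0 fell, in a comparison in which 1.59% of all genes were called, 0.975% higher and 0.616% lower. At an unadjusted p below 0.05, 3 were higher and 2 lower. DESeq2 also called Nsdhl and Insig1 higher and 0 lower, while over the whole table it called 472 genes higher and 498 lower. The median log2 fold change was 0.08, against 0.0094 over all genes tested. The 30 genes that were not called had fold changes of -0.32 to 0.49 and adjusted p-values of 0.104 to 0.999. Insig1 was the only gene of the list whose groups did not overlap, where 1.54% of all tested genes separated upward and 0.890% downward.

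Set directly against each other, the exposures differed in 12 of the 32 genes. Compared with e-cigarette libraries, smoke libraries were lower for 7 genes (Hmgcs1, Idi1, Sqle, Cyp51, Msmo1, Insig2 and Stard4) and higher for 5 (Acat2, Npc2, Nr1h3, Nr1h2 and Mylip). Of all genes tested, 16.5% were called in this comparison, 6.10% lower and 10.4% higher. The median over the list was -0.15, against -0.0084 over all genes tested. Idi1 and Insig2 were lower without overlap (2.72% of all tested genes were), and Npc2, Nr1h2 and Mylip were higher without overlap (6.65%). This comparison and the one of e-cigarette against air share the 6 e-cigarette libraries, so the fold changes of a gene in both are not independent.

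**Figure D2:**
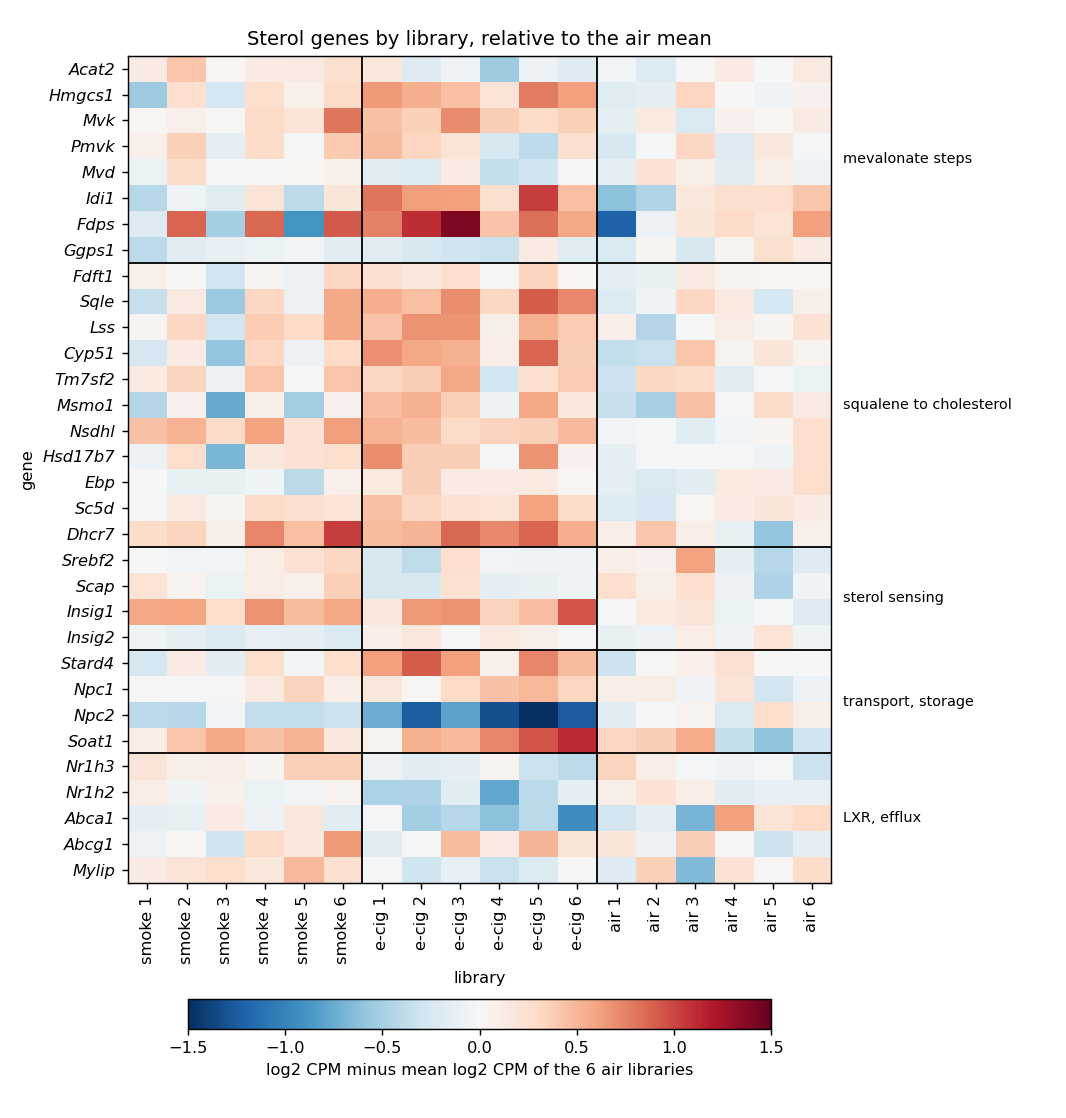
Each cell is the log2 CPM of a gene (y axis, in pathway order) in a library (x axis; smoke, e-cigarette, air) minus the mean log2 CPM of the 6 air libraries, red above and blue below. In the e-cigarette columns the synthesis enzymes from Hmgcs1 to Dhcr7 are mostly red and Npc2 is blue in all 6; e-cigarette library 4 is paler for the synthesis enzymes than the other 5.

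The early steps lead from acetyl-CoA to farnesyl and geranylgeranyl diphosphate. In e-cigarette against air libraries 3 of their 8 genes rose (37.5%, against 12.1% of all genes tested). Hmgcs1 encodes HMG-CoA synthase, which commits acetoacetyl-CoA to the pathway, and lies at chr13:119690379-119708260. Its lowest, median and highest levels were 46.7, 76.7 and 83.2 CPM in smoke libraries, 78.4, 102 and 117 CPM in e-cigarette libraries and 60.1, 67.0 and 85.1 CPM in air libraries. E-cigarette libraries exceeded the highest air library in 5 of 6 cases. The log2 fold change was 0.54 ± 0.13 (SE) in e-cigarette against air (adjusted p = 0.00549) and -0.50 ± 0.13 in smoke against e-cigarette libraries (adjusted p = 0.0131). In smoke against air it was 0.03 (adjusted p = 0.917). Idi1, isopentenyl-diphosphate isomerase (chr13:8885501-8892451), had 9.25, 11.4 and 14.3 CPM in smoke libraries, 14.7, 19.2 and 25.7 CPM in e-cigarette and 8.12, 14.4 and 16.6 CPM in air libraries. Every smoke library lay below every e-cigarette library. Its fold change was 0.60 ± 0.18 in e-cigarette against air (adjusted p = 0.0161) and -0.74 ± 0.18 in smoke against e-cigarette libraries (adjusted p = 0.00664). Without e-cigarette library 5, its highest, the rise over air was 0.49 and lost the call (adjusted p = 0.0565).

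Mvk, mevalonate kinase (chr5:114444269-114460591), had 15.6, 17.1 and 26.9 CPM in smoke libraries, 18.8, 19.9 and 25.3 CPM in e-cigarette and 13.2, 16.0 and 17.1 CPM in air libraries. All 6 e-cigarette libraries were above all air libraries, and the fold change was 0.42 ± 0.13 (adjusted p = 0.0192). The call was lost without air library 3 or without e-cigarette library 3, at fold changes of 0.34 to 0.36 (adjusted p = 0.0508 to 0.0619). Acat2, the cytosolic thiolase that makes acetoacetyl-CoA, had 25.8, 27.8 and 33.9 CPM in smoke libraries, 17.5, 23.0 and 28.4 CPM in e-cigarette and 21.9, 25.2 and 28.0 CPM in air libraries. It was higher in smoke than in e-cigarette libraries by 0.32 ± 0.10 (adjusted p = 0.0340), the only synthesis enzyme called in that direction. The call was lost when smoke library 2, 4, 5 or 6 or e-cigarette library 2, 4, 5 or 6 was left out, at 0.25 to 0.34 (adjusted p = 0.0502 to 0.0905). Of the other early genes, Pmvk and Mvd, the phosphomevalonate kinase and the decarboxylase, had fold changes of 0.12 and -0.15 in e-cigarette against air. Ggps1, which makes geranylgeranyl diphosphate for protein prenylation rather than sterols, had -0.19 (adjusted p = 0.165). Fdps, farnesyl diphosphate synthase, was counted at only 0.820 to 2.90 CPM in smoke libraries, 2.05 to 4.02 CPM in e-cigarette and 0.661 to 2.34 CPM in air libraries, and its fold change of 0.78 ± 0.31 in e-cigarette against air was the largest of the list on the upper side but was not called (adjusted p = 0.0745).

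From squalene to cholesterol, 6 of 11 genes rose in e-cigarette against air libraries (54.5%, against 12.1% of all genes tested). Sqle, squalene epoxidase, catalyses a rate-limiting oxygenation of squalene (chr15:59315077-59331192). It had 20.6, 30.8 and 44.8 CPM in smoke libraries, 37.6, 46.7 and 56.6 CPM in e-cigarette and 25.2, 30.5 and 37.4 CPM in air libraries. All e-cigarette libraries were above all air libraries, the closest pair by a small margin. The fold change was 0.61 ± 0.16 in e-cigarette against air (adjusted p = 0.00746) and -0.57 ± 0.16 in smoke against e-cigarette libraries (adjusted p = 0.0174), where it was -0.50 without e-cigarette library 5 (adjusted p = 0.0521). Lss closes squalene oxide into lanosterol. Its levels were 21.6, 32.5 and 39.0 CPM in smoke libraries, 28.0, 36.7 and 42.0 CPM in e-cigarette and 19.4, 27.5 and 30.4 CPM in air libraries, with e-cigarette over air at 0.46 ± 0.13 (adjusted p = 0.0157).

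Cyp51, the lanosterol demethylase (chr5:4081145-4104746), had 25.0, 38.2 and 47.0 CPM in smoke libraries, 40.2, 55.4 and 69.1 CPM in e-cigarette and 29.2, 38.9 and 50.3 CPM in air libraries. The groups overlapped, with 4 of 6 e-cigarette libraries above all air libraries. Its fold change was 0.52 ± 0.16 in e-cigarette against air (adjusted p = 0.0233) and -0.54 ± 0.16 in smoke against e-cigarette libraries (adjusted p = 0.0265). The call over air was lost without air library 1 or 2 or e-cigarette library 1 or 5 (0.42 to 0.47, adjusted p = 0.0539 to 0.0777). The call of smoke against e-cigarette was lost without smoke library 1, 3 or 5 or e-cigarette library 1, 2 or 5 (-0.53 to -0.45, adjusted p = 0.0518 to 0.0768). Msmo1, which oxidises the methyl groups that are then removed from the sterol ring, had 21.2, 31.8 and 38.0 CPM in smoke libraries, 33.7, 47.5 and 53.3 CPM in e-cigarette and 25.3, 37.3 and 48.5 CPM in air libraries. It was called only in smoke against e-cigarette libraries, at -0.56 ± 0.17 (adjusted p = 0.0313), and that call was lost without the same 6 libraries, each left out in turn (-0.54 to -0.47, adjusted p = 0.0638 to 0.0781). In e-cigarette against air its fold change was 0.31 (adjusted p = 0.197).

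Nsdhl, the dehydrogenase that acts after Msmo1 (chrX:72918557-72958514), was the synthesis enzyme called against air in both exposures. It had 15.0, 18.0 and 20.0 CPM in smoke libraries, 15.7, 17.3 and 18.5 CPM in e-cigarette and 11.4, 12.6 and 15.4 CPM in air libraries. All e-cigarette libraries and 5 of 6 smoke libraries were above the highest air library, air 6, which stood at 15.4 CPM where the other 5 reached at most 13.3 CPM. This gave a fold change of 0.45 ± 0.10 in smoke against air (adjusted p = 0.0262) and 0.41 ± 0.10 in e-cigarette against air (adjusted p = 0.00387). Smoke against e-cigarette was 0.04 (adjusted p = 0.808). The smoke call was lost without air library 4 or 5 or smoke library 2, 4 or 6 (0.40 to 0.46, adjusted p = 0.0505 to 0.0723). These comparisons share the air libraries.

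The closing desaturase and reductase were also higher after e-cigarette aerosol. Sc5d, a sterol desaturase, had 44.7, 51.0 and 55.2 CPM in smoke libraries, 52.5, 55.6 and 68.9 CPM in e-cigarette and 38.0, 47.8 and 51.5 CPM in air libraries. The e-cigarette and air groups did not overlap, at a fold change of 0.34 ± 0.09 (adjusted p = 0.0100). Dhcr7, the reductase that makes cholesterol from its dehydro precursor (chr7:143823145-143848410), had 15.1, 18.7 and 29.1 CPM in smoke libraries, 19.7, 22.1 and 26.0 CPM in e-cigarette and 9.51, 15.1 and 19.0 CPM in air libraries. All e-cigarette libraries were above all air libraries, and 3 of 6 smoke libraries were. The fold change was 0.64 ± 0.16 in e-cigarette against air (adjusted p = 0.00575) and 0.49 ± 0.16 in smoke against air, which was not called (adjusted p = 0.104). The other genes of the branch had fold changes in e-cigarette against air of 0.18 for Fdft1, squalene synthase, 0.27 for Tm7sf2, a sterol reductase, 0.38 for Hsd17b7, a ketosterol reductase, and 0.15 for Ebp, a sterol isomerase. Their adjusted p-values were 0.0852 for Hsd17b7 and above that for the rest.

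**Figure D3:**
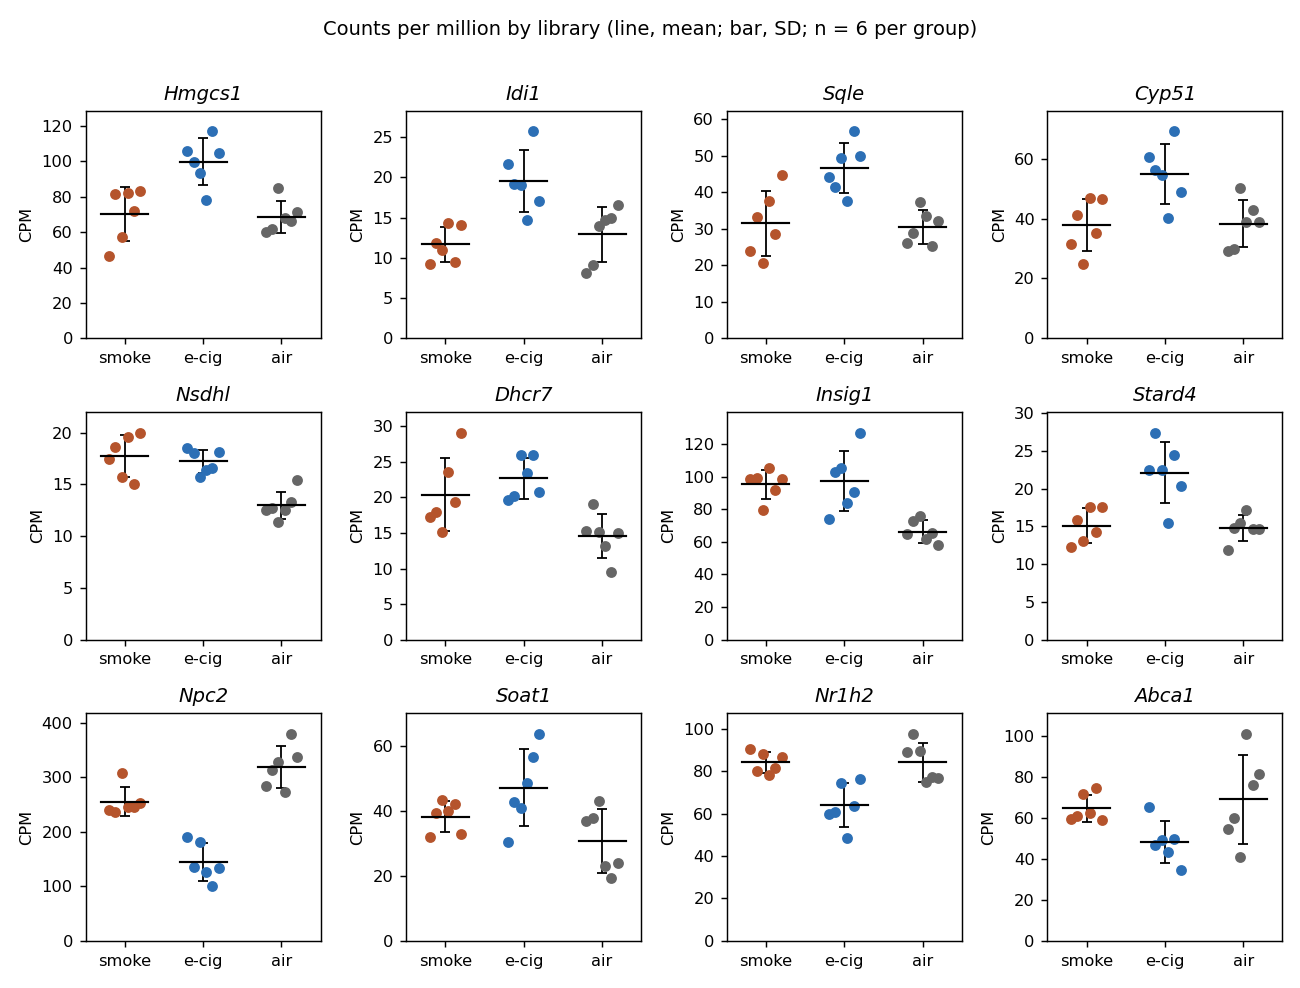
CPM (y axis, from 0) of 12 genes in each library of the smoke, e-cigarette and air groups (x axis), with the mean as a line and the SD as a bar (n = 6 per group). Points of the e-cigarette group lie above all air points for Sqle, Nsdhl and Dhcr7 and below all air points for Npc2; for Insig1 the 6 smoke points lie above all air points.

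Of the sterol sensor, the feedback gene Insig1 rose in both exposures while the rest did not pass the test against air. Insig1, which retains the Scap complex in the endoplasmic reticulum and is itself a target of that pathway, lies at chr5:28071363-28078662. It had 98.7, 99.3, 79.4, 105, 91.5 and 98.4 CPM in the smoke libraries, 74.1, 103, 105, 84.0, 90.7 and 127 CPM in the e-cigarette libraries and 64.9, 72.9, 75.7, 61.5, 65.2 and 57.8 CPM in the air libraries. All smoke libraries and all e-cigarette libraries but library 1 were above the highest air library. Its fold change was 0.52 ± 0.11 in smoke against air (adjusted p = 0.0251) and 0.55 ± 0.11 in e-cigarette against air (adjusted p = 0.00103). Smoke and e-cigarette libraries differed by -0.03 ± 0.11 (adjusted p = 0.883). Leaving out air library 4, 5 or 6 or smoke library 4, 5 or 6 ended the smoke call (0.47 to 0.52, adjusted p = 0.0555 to 0.0666). Without air libraries 4, 5 and 6 together, which were low in gland and cartilage transcripts, the smoke fold change of Insig1 was 0.40 (adjusted p = 0.125).

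Insig2, a relative that also retains Scap, had 49.9, 52.7 and 55.6 CPM in smoke libraries, 57.3, 62.1 and 65.6 CPM in e-cigarette and 54.0, 55.7 and 67.1 CPM in air libraries. Every smoke library was below every e-cigarette library, at -0.24 ± 0.07 (adjusted p = 0.0248), a call that was lost without smoke library 3 or 6 or e-cigarette library 2 (-0.22 each, adjusted p = 0.0521 to 0.063). The transcription factor gene Srebf2 had 103 to 131 CPM in smoke libraries, 80.9 to 126 CPM in e-cigarette and 78.7 to 160 CPM in air libraries, and its fold change in e-cigarette against air was -0.11 ± 0.14 (adjusted p = 0.602). Scap, the escort, had -0.11 ± 0.11 in the same comparison (adjusted p = 0.533). Processing of the Srebf2 protein, through which the pathway is switched, is not seen in mRNA levels.

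Transport and storage genes moved in opposite directions in e-cigarette against air libraries. Of the 4, 3 were higher (75.0%, against 12.1% of all genes tested) and 1 lower (25.0%, against 13.0%), shares that rest on few genes. Npc2 encodes the soluble protein that binds cholesterol in the lysosome and hands it to the membrane protein Npc1 for export, and lies at chr12:84754562-84773152. It had 240, 237, 308, 246, 246 and 254 CPM in the smoke libraries, 190, 135, 182, 127, 101 and 134 CPM in the e-cigarette libraries and 285, 313, 329, 273, 380 and 337 CPM in the air libraries. Every e-cigarette library was below every smoke and every air library. The mean was 255 ± 26.6 CPM in smoke, 145 ± 34.3 CPM in e-cigarette and 319 ± 38.6 CPM in air (SD, n = 6 each). The fold change was -1.14 ± 0.13 in e-cigarette against air (0.454-fold, adjusted p = 7.59e-06) and 0.81 ± 0.13 in smoke against e-cigarette libraries (adjusted p = 0.000309). In smoke against air it was -0.32 ± 0.13 and was not called (adjusted p = 0.169), although 5 of 6 smoke libraries were below the lowest air library.

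Within the e-cigarette group, Npc2 was highest where thyroid transcripts were: it was 190 and 182 CPM in libraries 1 and 3, which held the most thyroid transcripts, and 101 to 135 CPM in libraries 2, 4, 5 and 6. With only libraries 1 and 3 kept in the e-cigarette group, its fold change against air was -0.80 (adjusted p = 0.00504). Smoke against e-cigarette was then 0.45 (adjusted p = 0.185). With 4 composition scores as covariates (thyroid, cartilage, skeletal muscle and adipocyte), e-cigarette against air was -0.60 (adjusted p = 0.0797).

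**Figure D4:**
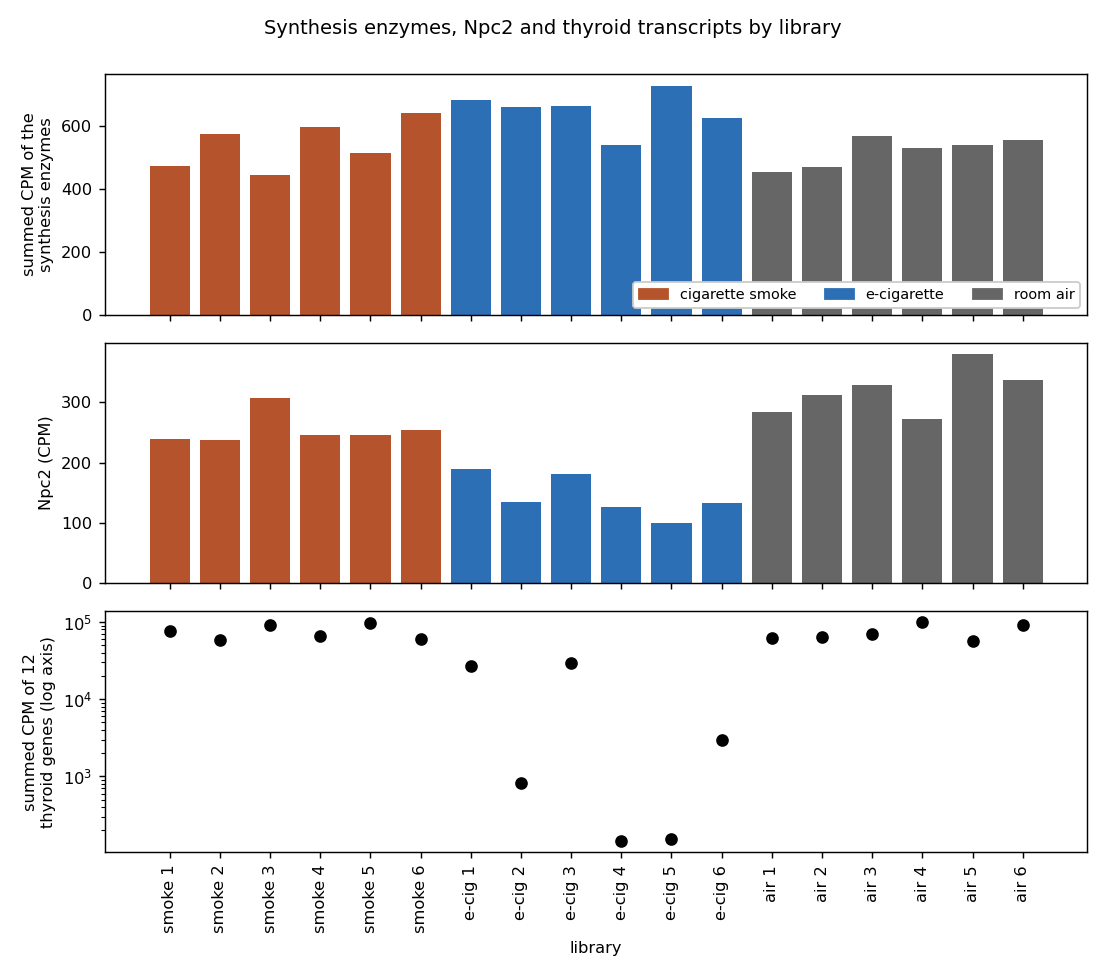
Summed CPM of the 19 synthesis enzymes (top, bars from 0), CPM of Npc2 (middle, bars from 0) and summed CPM of 12 thyroid follicle genes (bottom, points on a log axis) in each of the 18 libraries (x axis; smoke, e-cigarette, air). E-cigarette libraries 1 and 3 have the most thyroid transcripts and the most Npc2 of their group, while the enzyme sum is 542 in e-cigarette library 4 and 628 to 730 in the other 5.

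The partner Npc1 had 45.1, 47.6 and 58.0 CPM in smoke libraries, 46.3, 56.7 and 64.3 CPM in e-cigarette and 37.8, 46.3 and 52.6 CPM in air libraries. It was higher in e-cigarette than in air libraries by 0.29 ± 0.10 (adjusted p = 0.0293). The call was lost when air library 3, 5 or 6, smoke library 4 or e-cigarette library 3, 4, 5 or 6 was left out (0.23 to 0.28, adjusted p = 0.0506 to 0.0998). Stard4, a cytosolic carrier that shuttles cholesterol between membranes, had 12.2, 15.1 and 17.6 CPM in smoke libraries, 15.5, 22.5 and 27.4 CPM in e-cigarette and 11.8, 14.8 and 17.1 CPM in air libraries. E-cigarette libraries were above the highest air library in 5 of 6 cases. The fitted difference was 0.58 ± 0.13 in e-cigarette against air (adjusted p = 0.00254) and -0.55 ± 0.13 in smoke against e-cigarette libraries (adjusted p = 0.00674).

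Soat1 esterifies cholesterol for storage in droplets (chr1:156424525-156474331). It had 31.9, 39.6 and 43.5 CPM in smoke libraries, 30.5, 45.7 and 63.8 CPM in e-cigarette and 19.4, 30.5 and 43.2 CPM in air libraries. The groups overlapped widely, with 3 of 6 e-cigarette libraries above all air libraries, and the fold change was 0.62 ± 0.19 in e-cigarette against air (adjusted p = 0.0227). Leaving out air library 4 or 6 or e-cigarette library 5 or 6 ended the call (0.50 to 0.54, adjusted p = 0.0594 to 0.0656). The value depended on which libraries stood for each group: it was 0.26 without air libraries 4, 5 and 6 (adjusted p = 0.306) and 0.20 without e-cigarette libraries 2, 4, 5 and 6 (adjusted p = 0.729). Macrophages are a known site of Soat1. Of 11 macrophage genes tested, 3 rose (27.3%, against 12.1% of all genes) and 0 fell in e-cigarette against air. Lyz2 was among the 3, at 1.09 ± 0.28 (adjusted p = 0.00783). The summed level of 12 macrophage genes was 3970 to 4509 CPM in smoke libraries, 5086 to 10730 CPM in e-cigarette and 2096 to 6930 CPM in air libraries, most of it Lyz2. The defining markers Adgre1 and Cd68 were at 5.43 to 14.6 CPM and 6.03 to 13.6 CPM in e-cigarette and at 5.46 to 12.9 CPM and 7.19 to 10.5 CPM in air libraries. Their part in the result was not tested.

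The liver X receptor arm was lower in e-cigarette than in air libraries for 2 of 5 genes and higher in smoke than in e-cigarette libraries for 3 of 5. Nr1h2, the broadly expressed receptor LXR-beta (chr7:44549616-44553951), had 78.3, 83.9 and 90.5 CPM in smoke libraries, 48.7, 62.2 and 76.3 CPM in e-cigarette and 74.7, 83.1 and 97.5 CPM in air libraries. Every smoke library was above every e-cigarette library, and 5 of 6 e-cigarette libraries were below every air library. The fold change was -0.39 ± 0.10 in e-cigarette against air (adjusted p = 0.00620) and 0.39 ± 0.10 in smoke against e-cigarette libraries (adjusted p = 0.00978). Smoke against air was 0.00 (adjusted p = 0.999). With the composition scores as covariates, Nr1h2 was at -0.20 in e-cigarette against air (adjusted p = 0.489) and at 0.25 in smoke against e-cigarette libraries (adjusted p = 0.976). Nr1h3, LXR-alpha, had 14.4, 15.5 and 17.9 CPM in smoke libraries, 10.7, 12.7 and 14.5 CPM in e-cigarette and 11.2, 13.8 and 17.7 CPM in air libraries. It was called in smoke against e-cigarette libraries at 0.36 ± 0.11 (adjusted p = 0.0309), a call lost without smoke library 5 or 6 or e-cigarette library 2, 5 or 6 (0.32 to 0.36, adjusted p = 0.0578 to 0.0695).

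Mylip, a ubiquitin ligase that marks lipoprotein receptors for degradation (chr13:45389742-45412022), had 72.4, 77.4 and 93.0 CPM in smoke libraries, 52.7, 59.6 and 66.6 CPM in e-cigarette and 42.1, 72.2 and 85.6 CPM in air libraries. Smoke libraries were all above the e-cigarette libraries, at 0.41 ± 0.13 (adjusted p = 0.0353). The call was lost without smoke library 3, 5 or 6 or e-cigarette library 2, 4 or 5 (0.36 to 0.41, adjusted p = 0.0528 to 0.0823). Abca1, the pump that loads cholesterol onto lipid-poor apolipoprotein, had 59.0, 61.7 and 74.5 CPM in smoke libraries, 34.6, 48.0 and 65.4 CPM in e-cigarette and 40.7, 68.1 and 101 CPM in air libraries. The air libraries spanned the widest range, and 1 of 6 e-cigarette libraries was below all of them. The fold change of -0.52 ± 0.17 in e-cigarette against air (adjusted p = 0.0339) was lost without air library 4, 5 or 6 or e-cigarette library 2, 4 or 6 (-0.51 to -0.39, adjusted p = 0.0585 to 0.0823). It was -0.11 without air libraries 4, 5 and 6 together (adjusted p = 0.645), -0.29 without e-cigarette libraries 2, 4, 5 and 6 (adjusted p = 0.588) and 0.07 with the composition scores as covariates (adjusted p = 0.919). The second pump, Abcg1, had 0.18 ± 0.16 in e-cigarette against air (adjusted p = 0.413).

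The e-cigarette calls were next read against e-cigarette libraries 1 and 3, which held the most thyroid transcripts of their group. They were not matched to air: they held 26971 and 29333 CPM of thyroid transcripts, against 57213 to 98979 CPM in air. Their parathyroid sums were 24.8 and 20.0 CPM, against 38.2 to 7921 CPM in air. With e-cigarette libraries 1 and 3 alone against the 6 air libraries, 1 gene was called higher (Stard4, 0.59, adjusted p = 0.0483) and 1 lower (Npc2), while 14 higher and 2 lower had an unadjusted p below 0.05. Over the whole table that fit called 238 genes higher and 450 lower, against 2128 and 2278 with all 18 libraries. All 16 genes called with 6 libraries kept their sign, 5 were as large or larger, and 2 (Soat1 and Abca1) were over 1.5 times smaller. Among the synthesis enzymes, the fold changes were 0.52 for Hmgcs1, 0.56 for Mvk, 0.64 for Idi1, 0.59 for Sqle, 0.52 for Lss, 0.57 for Cyp51, 0.38 for Nsdhl, 0.31 for Sc5d and 0.63 for Dhcr7. Their adjusted p-values were 0.101 for Mvk to 0.209 for Sc5d. With the composition scores as covariates, 0 of the 32 genes were called in any comparison by edgeR. In e-cigarette against air, 10 were then higher and 1 lower at an unadjusted p below 0.05, and 15 of the 16 genes had the same sign. Of the 16, 9 were as large or larger, among them Hmgcs1 at 0.65, Mvk at 0.74, Idi1 at 0.89 and Stard4 at 0.84 (adjusted p = 0.0722 to 0.196). Another 5 were over 1.5 times smaller: Soat1 at 0.13, Npc1 at 0.19, Nr1h2 at -0.20, Npc2 at -0.60 and Abca1 at 0.07. In that fit 98 genes of the whole table were called higher and 265 lower. The thyroid score was -0.054 or lower in every e-cigarette library and 0.426 or higher in every air and smoke library. The covariate fit therefore cannot separate e-cigarette exposure from thyroid content, whether a fold change grew or shrank in it. Gland genes were not among the scores.

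The 12 calls of smoke against e-cigarette libraries were all lost in both fits, with different fold changes. Most calls of the whole table were lost too. The fit of all libraries without covariates called 1828 genes higher and 1069 lower. The fit with e-cigarette libraries 1 and 3 alone called 143 higher and 4 lower. The fit with the composition scores called 0 in either direction. The loss was therefore not particular to these 12 genes. With e-cigarette libraries 1 and 3 alone, 2 genes were higher and 7 lower at an unadjusted p below 0.05, all 12 kept their sign, and 6 were as large or larger, Idi1 at -0.81 and Msmo1 at -0.63 among them. Acat2, at 0.13, and Npc2, at 0.45, were over 1.5 times smaller. With the composition scores as covariates, 0 were higher and 3 lower at an unadjusted p below 0.05, all 12 kept their sign and none was as large. In that fit 7 were over 1.5 times smaller: Npc2 at 0.23, Nr1h2 at 0.25, Nr1h3 at 0.12, Mylip at 0.16, Acat2 at 0.15, Msmo1 at -0.36 and Insig2 at -0.13. Hmgcs1, Sqle and Stard4 were at -0.44, -0.50 and -0.50, and the adjusted p-values of all 12 were 0.975 to 0.993.

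Libraries of a group also differed from each other across the whole branch. The summed level of the 19 synthesis enzymes was 541 ± 76.3 CPM in smoke (444 to 642), 652 ± 63.2 CPM in e-cigarette (542 to 730) and 520 ± 47.0 CPM in air (454 to 569; SD, n = 6 each). In the smoke group, library 3 was the lowest for 11 of the 19 enzymes and library 6 the highest for 10. In the e-cigarette group, library 4 was the lowest for 14 and library 5 the highest for 9. E-cigarette library 4 was above the air median for 11 of 19 enzymes and the other 5 for 15 to 17. Smoke libraries were above the air median for 3 to 17 enzymes, with library 3 at the low end and library 6 at the high end. E-cigarette libraries 4 and 5 had about the same thyroid content, 145 and 155 CPM, and the lowest and highest enzyme sums of their group. Their gland sums were 54417 and 36514 CPM, cartilage sums 1113 and 697 CPM and adipocyte sums 1414 and 1056 CPM. Skeletal muscle sums were closer, 41488 and 42185 CPM. The part of tissue content in the enzyme levels was not tested.

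Per kilobase of gene model, the levels spanned a wide range. In air libraries, mean levels per kilobase were highest for Npc2 (58.8 CPM per kb), Nr1h2 (25.1), Insig1 (21.4) and Mylip (21.2) and lowest for Hsd17b7 (1.78) and Fdps (0.388 CPM per kb). Among synthesis enzymes, Ebp (16.0 CPM per kb), Hmgcs1 (15.0) and Fdft1 (14.4) led in air. In e-cigarette libraries Insig1, at 31.5 CPM per kb, exceeded Npc2, at 26.7 CPM per kb. Part of the gene models overlaps neighbours, and the library kit did not mark strand. Ctsb, with 171841 counts in all libraries, shares 18.3% of the exon bases of Fdft1, which had 20266. Fdps shares 26.7% of its exon bases with a predicted gene, which had 3 counts in all libraries. The low Fdps counts are uncertain, and the part of this overlap in them was not tested. Overlaps also touched Hmgcs1 (12.1%) and Idi1 (9.22%), whose opposite neighbours had only 23 and 2 counts in all 18 libraries, and Cyp51 (3.76%) and Npc1 (4.52%), whose neighbours Akap9 and Rmc1 had 36243 and 8722.

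Of 45 further genes of the sterol pathway, 44 were in the table and 40 were tested. In smoke against air edgeR called 0 of the 40, with 4 higher and 1 lower at an unadjusted p below 0.05 and a median fold change of 0.05. In e-cigarette against air 2 rose (5.00%, against 12.1% of all genes tested) and 8 fell (20.0%, against 13.0%), with a median of -0.08. Abca2, a lipid transporter of endosomes and myelin, fell, with a log2 fold change of -0.92 ± 0.13 (adjusted p = 6.27e-05), as did Lpcat3, a phospholipid remodelling enzyme, at -0.52 ± 0.09 (adjusted p = 0.000378). Cyp27a1, the mitochondrial sterol hydroxylase, rose by 0.60 ± 0.12 (adjusted p = 0.000880). In smoke against e-cigarette libraries 9 were higher (22.5%, against 10.4%) and 2 lower (5.00%, against 6.10%), led by Abca2 at 0.96 ± 0.13 (adjusted p = 0.000116).

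Fatty acid synthesis shares its acetyl-CoA supply with sterol synthesis and is driven largely by the related factor Srebf1. In smoke against air libraries 2 of the 32 sterol genes rose (6.25%), against 8 of 24 fatty acid and triglyceride synthesis genes (33.3%) and 0.975% of all genes tested. Acss2, which makes acetyl-CoA from acetate, was higher by 0.97 ± 0.13 (adjusted p = 0.00119) and the desaturase Scd1 by 1.58 ± 0.27 (adjusted p = 0.00875). In e-cigarette against air 13 sterol genes rose and 3 fell (40.6% and 9.38%), against 4 and 3 of the 24. The 16.7% and 12.5% of the fatty acid list were near the 12.1% higher and 13.0% lower of all genes tested. In smoke against e-cigarette libraries 5 sterol genes were higher and 7 lower (15.6% and 21.9%), against 13 and 0 of the 24 (54.2% and 0%). Of all genes tested, 10.4% were higher and 6.10% lower in that comparison. The summed level of the 24 genes was 4132 to 11179 CPM in smoke libraries, 2570 to 4527 CPM in e-cigarette and 2630 to 3253 CPM in air libraries. Of 14 adipocyte genes, 8 (57.1%) were higher and 0 lower in smoke than in e-cigarette libraries. Against air, 1 (7.14%) was higher and 0 lower in smoke libraries, and 0 were higher and 2 (14.3%) lower in e-cigarette libraries. The median fold change in e-cigarette against air was -0.24 for the adipocyte genes and 0.23 for the fatty acid genes. The adipocyte genes had a summed level of 1545 to 2108 CPM in smoke libraries, 1056 to 1493 CPM in e-cigarette and 1283 to 1879 CPM in air. Their part in the result was not tested, and the difference between the gene lists themselves was not tested.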

How the data were processed

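The deposited table holds raw counts per gene and library, whole numbers with gene coordinates. Per the labels' protocols, 1 µg of total RNA from whole larynx went into an NEBNext Ultra RNA library. Per the submitters' processing notes, STAR and featureCounts 1.5.0-p3 were used with builds GRCm38 and mm10. Nothing in the sources used here gives the STAR version, the annotation release or the strand setting. Of 54532 genes, 35370 had at least 1 count.

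Counts were tested with edgeR 4.0.16 (R 4.3.3): TMM factors, filterByExpr (minimum count 10, minimum total 15), which kept 17537 genes, and a robust quasi-likelihood fit of 18 libraries in 3 groups without covariates, with Benjamini-Hochberg adjustment over all tested genes at a threshold of 0.05. CPM used TMM-scaled library sizes. SE is the fold change divided by the square root of F. The steps were tested on simulated data. Every gene called in a comparison is described with its values, and the others by ranges. Of other lists, at most the 4 called genes with the smallest p were eligible to be named. Promoter letters come from RefSeq (GRCm38.p6) and exon overlaps from a GENCODE annotation of GRCm38, in which 29 of the 32 genes have the deposited coordinates. The genes, lists, tests and library subsets were chosen with earlier results of these data known. Alternatives were DESeq2 1.42.0, RLE and upper-quartile factors, no filter, fits of 2 groups, a replicate block, subsets and composition covariates (log2 CPM with a prior count of 2).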

Additional observations from a re-analysis of the deposited data

Results flagged for a closer look

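Among 96 combinations of gene and group, 8 had a library far from the other 5 of its group by Dixon's test (critical value 0.625), where chance gives about 1 in 20. All 8 were the highest of their group. Mvk was at 26.9 CPM in smoke library 6, against 15.6 to 18.9 CPM in the other smoke libraries, and at 25.3 CPM in e-cigarette library 3, against 18.8 to 21.0 CPM in the others of its group. Npc2 was at 308 CPM in smoke library 3, against 237 to 254 CPM in the others. Mylip was at 93.0 CPM in smoke library 5, against 72.4 to 80.1 CPM. In e-cigarette libraries, Ggps1 was at 38.4 CPM in library 5, against 27.9 to 31.1 CPM, Ebp at 47.2 CPM in library 2, against 37.4 to 40.4 CPM, and Scap at 55.0 CPM in library 3, against 39.9 to 44.9 CPM. Hsd17b7 was at 10.8 CPM in air library 6, against 8.24 to 9.04 CPM.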

How the results depend on the processing

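DESeq2 and RLE size factors gave the same counts of the 32 genes called as TMM in all 3 comparisons. Their counts over the whole table differed. In smoke against air, DESeq2 called 472 genes higher and 498 lower and RLE 130 and 141, against 171 and 108 with TMM. The direction of every called gene held in every alternative except Abca1, whose e-cigarette against air fold change was 0.07 with 4 composition covariates, and of 810 fold changes of called genes under alternatives 648 kept the call, 161 lost it and 1 changed sign; the cause was not tested. In smoke against air, the 2 genes called higher became 1 without a filter on low counts, in a fit of only the 2 groups, without e-cigarette libraries 2, 4, 5 and 6 and without air libraries 4, 5 and 6, and 0 with composition covariates. Leaving out 1 library at a time gave 0 to 2, with 0 without air library 4 or 5 or smoke library 4 or 6. In e-cigarette against air, the counts of 13 higher and 3 lower became 1 and 1 without the 4 e-cigarette libraries and 0 and 0 with covariates, and leaving out 1 library gave 9 to 14 higher and 2 to 4 lower. In smoke against e-cigarette, the 5 higher became 2 with upper-quartile factors and 3 without a filter, and the 5 higher and 7 lower became 0 and 0 without the 4 e-cigarette libraries or with covariates. Leaving out 1 library gave 2 to 6 higher and 4 to 7 lower. Over the whole table, this comparison had 143 genes higher and 4 lower without the 4 e-cigarette libraries, and 0 in either direction with covariates. In that comparison Hmgcs1, Idi1, Npc2, Nr1h2 and Stard4 were called whichever library was left out; in e-cigarette against air 10 genes were. Depth limits the genes with few counts most: Fdps, at 0.661 to 4.02 CPM, was the least precisely measured gene.

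The replicate numbers did not pair the samples: deviations of same-numbered libraries correlated at -0.45 to 0.16, over 0.1 in 3 of 18 pairs, and 0 libraries correlated best with their own number. With the replicate block, 0 of the 32 genes were higher in smoke against air, 10 higher and 2 lower in e-cigarette against air, and 2 higher and 4 lower in smoke against e-cigarette. Over the whole table the block fit called 22 higher and 17 lower, 1845 and 1991, and 1600 and 786, in the same order.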
